A study of Mus musculus with 32 samples.

Results

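The *Kmt2* and *Setd1* genes encode large SET-domain proteins, most of which place methyl groups on H3K4, a lysine in the tail of histone H3. The members were chosen by name and not by any measured value: *Kmt2a*, *Kmt2b*, *Kmt2c*, *Kmt2d*, *Kmt2e*, *Setd1a* and *Setd1b*, 7 of the 53715 genes in the deposited gene tables, together with their annotated transcripts, 48 of 135181 in the transcript tables. The study asked how heterozygosity for *Kmt2a*, which encodes an H3K4 methyltransferase, and loss of *Kdm5c*, which encodes an H3K4 demethylase, act apart and together in the brain. mRNA-seq was made from the microdissected amygdala and hippocampus of 16 adult male mice, 4 per genotype, which gave 32 libraries. All mice were F1 hybrids of *Kmt2a*-heterozygous 129S1/SvImJ males and *Kdm5c*-heterozygous C57BL/6J females. The genotypes were WT, *Kmt2a*-HET (*Kmt2a*+/-), *Kdm5c*-KO (*Kdm5c*-/y, without a functional copy, since the gene lies on the X chromosome) and DM, which carried both alleles (*Kmt2a*+/-, *Kdm5c*-/y). Both alleles were inherited through the cross and not induced in a chosen cell type, and the amygdala and hippocampus came from the same mice.

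H3K4 methylation is found at active promoters and enhancers and is written by complexes that share a core of WDR5, RBBP5, ASH2L and DPY30. KMT2A and KMT2B act with menin at promoters of chosen genes, KMT2C and KMT2D place monomethylation at enhancers, and SETD1A and SETD1B account for much of the trimethylation at promoters. KMT2E is a relative that binds methylated H3K4 and for which methyltransferase activity is not established. Mutations in the human counterparts of these genes cause neurodevelopmental disorders.

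Gene counts summed to between 19215503 and 26033615 per amygdala library and between 19322262 and 27798980 per hippocampus library. The hippocampal markers *Prox1*, *Dsp*, *Fibcd1* and *C1ql2* were all higher in the hippocampus, with a summed level of 146.7 to 355.9 TPM (counts scaled by transcript length and library total) against 16.4 to 45.49 in the amygdala. The amygdala markers were less clear, since 1 of 4 was called lower and 1 of 4 higher in the hippocampus (adjusted p below 0.1, DESeq2). Their summed level reached 233.4 to 1498 TPM in the amygdala and 118.8 to 438.3 TPM in the hippocampus. Markers of neurons, glia and vessels were present in both regions, and fewer cells of a type and less RNA per cell cannot be told apart in such bulk tissue.

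*Kmt2a* spans chr9:44803355-44881296 on the minus strand (mm10, annotation of GENCODE M21). The targeted exons, 8 and 9 by the numbering of Kmt2a-201, have 74 and 132 bases, or 1.25% of that transcript. A count over the whole gene therefore does not test the deletion, and reads per exon were not analysed here.

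The other members lie at chr7:30568858-30588726 (*Kmt2b*), chr5:25271798-25498783 (*Kmt2c*), chr15:98831669-98871204 (*Kmt2d*), chr5:23434441-23504235 (*Kmt2e*), chr7:127776670-127800122 (*Setd1a*) and chr5:123142193-123168629 (*Setd1b*). Their exonic lengths run from 6795 bases for *Setd1a* to 20291 bases for *Kmt2c*, against a median of 4831 among 11647 expressed genes. *Setd1a* and *Kmt2b* (9596 bases) fall short of the 10000 bases that define long genes below. The 3′ part of *Kmt2e* overlaps *Srpk2* on the opposite strand, which reached 3539 normalised counts. No other gene that overlaps a member exceeded 83.83.

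All 7 genes were expressed in every library, and on the per-length scale *Kmt2d* was the most abundant. In the amygdala it had 46.26 ± 11.3 TPM (SD over 16 libraries), followed by *Kmt2b* with 40.39 ± 7.509, *Setd1a* with 33.78 ± 4.761 and *Kmt2e* with 31.01 ± 6.148. *Kmt2a* had 27.52 ± 7.193 TPM, *Kmt2c* 23.19 ± 5.335 and *Setd1b*, the lowest, 20.42 ± 4.222. Neighbours in this order overlapped in their ranges over libraries, but within a library some of them kept their order. *Kmt2b* exceeded *Setd1a* and *Kmt2a* exceeded *Kmt2c* in 16 of 16 amygdala libraries, whereas *Setd1a* exceeded *Kmt2e*, and *Kmt2c* exceeded *Setd1b*, in 11 of 16. In the hippocampus the order was the same except that *Kmt2e* (35.58 ± 8.384 TPM) came before *Setd1a* (32.88 ± 3.626), which it exceeded in 10 of 16 libraries.

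**Figure D1:**
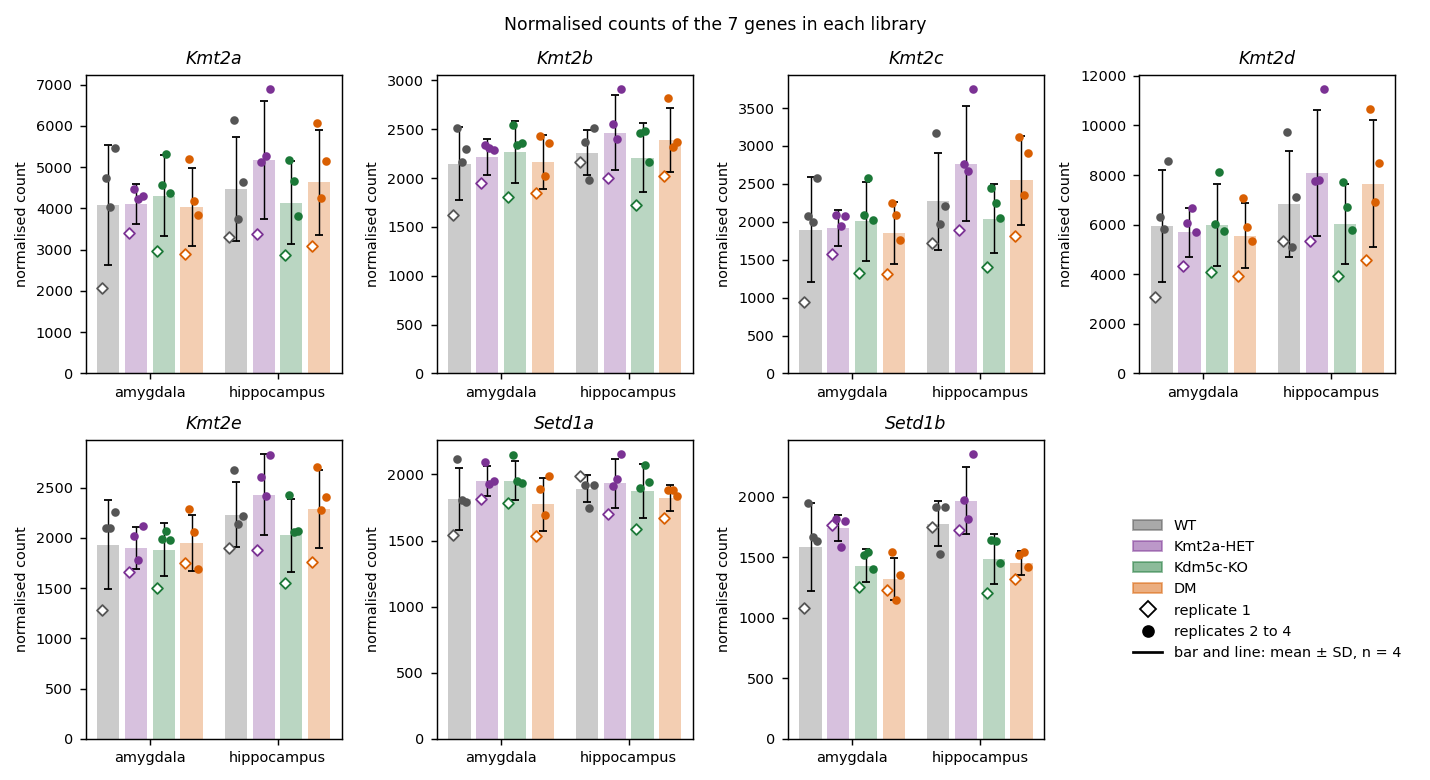
Normalised counts of the 7 genes (vertical axis, 1 panel per gene) in each of the 32 libraries, by genotype and region, with the mean and SD of each group of 4. The libraries numbered 1 are open diamonds and sit at or near the foot of most groups, and the ranges of each mutant and WT overlap for every gene.

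The members varied widely between libraries of a group. On the log2 scale, the mean deviation of the 7 genes from the mean of their region ranged from -0.65 in WT amygdala replicate 1 to 0.49 in *Kmt2a*-HET hippocampus replicate 4. It was below 0 in all 8 libraries numbered 1 and in 5 of the 24 others. Across the same libraries, 1360 long genes, those with at least 10000 exonic bases, had a median deviation from -0.34 to 0.24, which was also below 0 in all 8 libraries numbered 1 and in 6 of the 24 others. The members and the long genes lay on the same side in 27 of 32 libraries. As a description over these 32 libraries, Pearson's r with the long-gene median was 0.98 for *Kmt2c*, 0.96 for *Kmt2a*, 0.95 for *Kmt2d* and *Kmt2e*, 0.80 for *Kmt2b*, 0.72 for *Setd1b* and 0.59 for *Setd1a*, the shortest member. What sets the libraries numbered 1 apart was not tested.

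The members also moved with each other from library to library. The 21 pairs had Pearson's r from 0.64 to 0.99 with a median of 0.86 over the 32 libraries, after removal of the mean of each genotype and region. The 5 genes outside the group whose deviations were most like the mean of the members, among 11647 genes, were *Helz* (r = 0.980), *Htt* (0.975), *Tnrc6b* (0.975), *Ksr2* (0.974) and *Prrc2b* (0.972). All 5 were long genes by the same cut, with 11262 exonic bases or more. The points of these correlations share libraries and their depth, and no p is given for them.

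**Figure D2:**
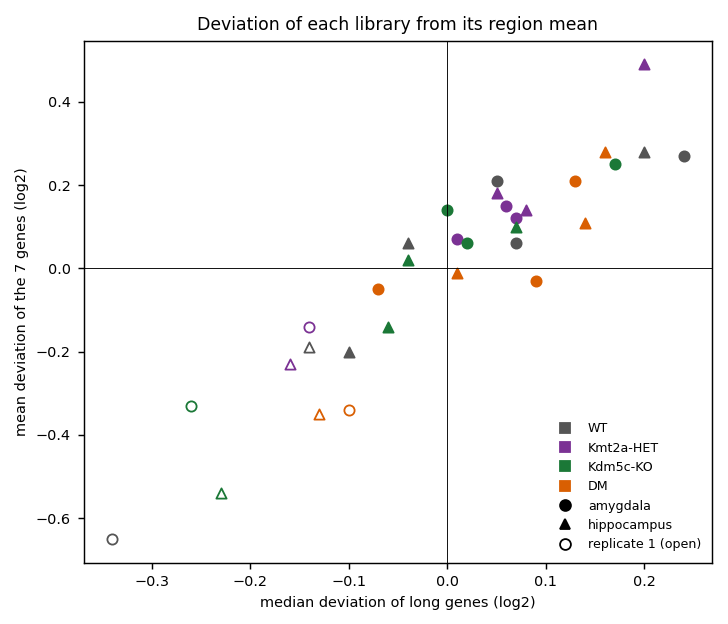
Mean log2 deviation of the 7 genes from their region's mean (vertical axis) against the median deviation of 1360 long genes (horizontal axis), 1 point per library. The 8 libraries numbered 1 lie in the lower left, from -0.65 to -0.14 on the vertical axis.

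Each mutant was then compared with WT in each region. A gene was called at an adjusted p below 0.1 (DESeq2, adjusted over all genes tested). No member was called in any of the 6 comparisons, and in all 42 member comparisons the values of the mutant and WT mice overlapped. Among all genes with a mean of at least 100 normalised counts, 1.62% to 4.64% had no overlap in these comparisons. The share of all genes called was 0.00329% for *Kmt2a*-HET, 0.756% for *Kdm5c*-KO and 0.99% for DM in the amygdala. In the hippocampus these shares were 0%, 1.01% and 0.881%. At an unadjusted p below 0.05, 0 members passed in 4 comparisons and 1, *Setd1b*, passed in *Kdm5c*-KO and in DM hippocampus. At that threshold 1657 genes passed in *Kdm5c*-KO hippocampus and 1590 in DM hippocampus, where 19302 were tested in each. With edgeR 0 members were called in all 6 comparisons. Over the 7 genes the log2 fold change ranged from -0.06 to 0.14 in *Kmt2a*-HET amygdala and from 0.03 to 0.29 in *Kmt2a*-HET hippocampus. It ranged from -0.14 to 0.11 in *Kdm5c*-KO amygdala and from -0.26 to -0.01 in *Kdm5c*-KO hippocampus. In DM the amygdala values ran from -0.26 to 0.02 and the hippocampus values from -0.29 to 0.17.

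**Figure D3:**
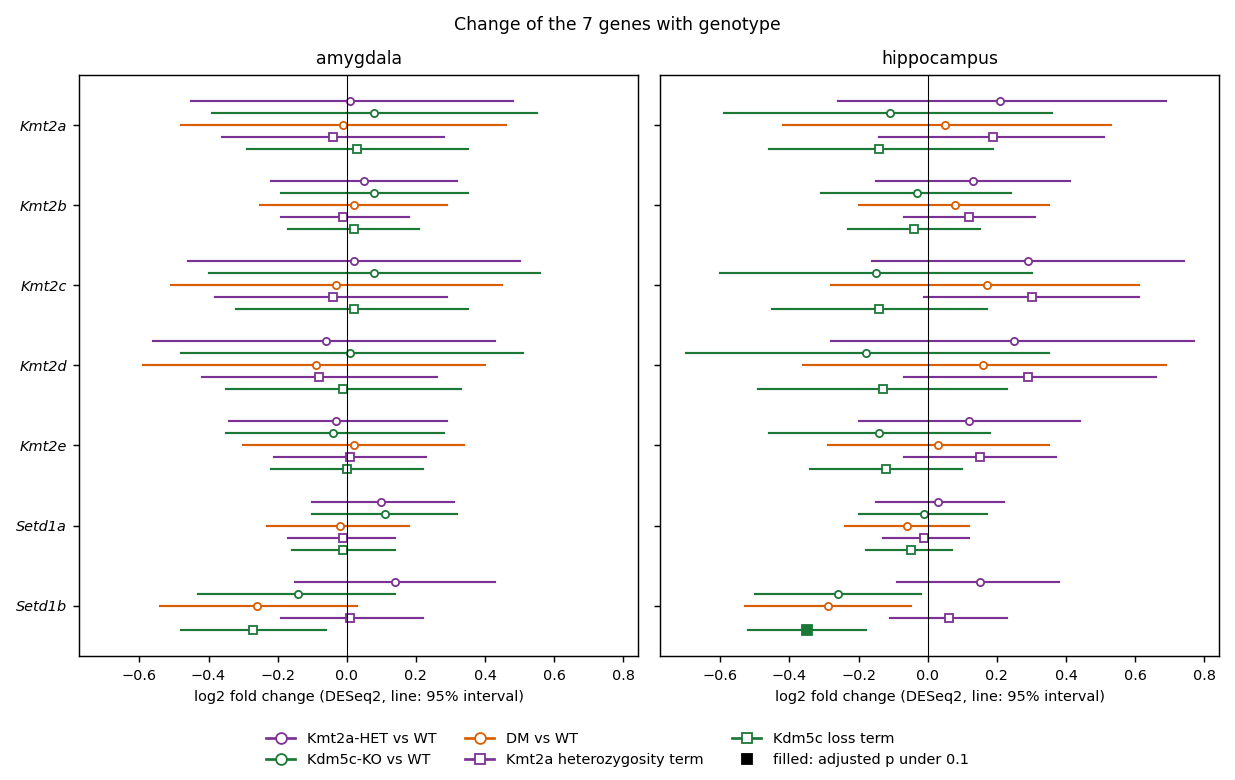
Log2 fold change of each gene (horizontal axis) with its 95% interval, by region, for each mutant against WT (circles) and for the *Kmt2a* and *Kdm5c* terms of the additive model of both mutations (squares). Intervals cross 0 except for *Setd1b*, in *Kdm5c*-KO and DM hippocampus (adjusted p = 0.527 and 0.456, DESeq2) and for *Kdm5c* loss in both regions, of which the filled square in the hippocampus was called.

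*Kmt2a*, the gene with a targeted allele, was not called in the mice that carried it. In the amygdala the WT libraries had 2075, 4735, 4026 and 5469 normalised counts and the *Kmt2a*-HET libraries 3410, 4480, 4231 and 4306. The means were 4076 ± 1459 and 4107 ± 476.2 (SD, n = 4), and the WT library with 2075 was the lowest of all 16 in that region. In the hippocampus the WT libraries had 3318, 6154, 3751 and 4649 and the *Kmt2a*-HET libraries 3388, 5129, 5273 and 6900, and the groups overlapped in both regions. The log2 fold change was 0.01 with a 95% interval of -0.45 to 0.48 in the amygdala and 0.21 with an interval of -0.26 to 0.69 in the hippocampus, with an adjusted p of 1 in each (DESeq2). When each library was left out in turn, the amygdala value ran from -0.20 without WT replicate 1 to 0.19 without WT replicate 4. In the hippocampus it ran from 0.05 without *Kmt2a*-HET replicate 4 to 0.40 without WT replicate 2. Over mice with and without the allele, DM included, amygdala means were 4068 ± 696.6 and 4191 ± 1158, and hippocampus means 4904 ± 1288 and 4302 ± 1066 (SD, n = 8).

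*Kdm5c*, the other targeted gene, showed a partial fall in its count over the whole gene. This count also covers exons outside the deletion, and reads per exon were not analysed here. The study reports missing or reduced reads from the targeted *Kdm5c* exons, and checked the genotype on KDM5C protein by western blot. In the hippocampus the WT libraries had 1541, 1963, 1463 and 1593 normalised counts and the *Kdm5c*-KO libraries 1184, 1410, 1279 and 1312, without overlap (adjusted p = 0.0299, DESeq2). The DM libraries had 1394, 1481, 1371 and 1445, which overlapped WT (adjusted p = 0.487, DESeq2). In the amygdala WT replicate 1 had 1177, below all *Kdm5c*-KO and DM libraries, and neither genotype was called against WT (adjusted p = 0.467 and 0.325, DESeq2). Over mice with and without the allele, its log2 difference was -0.30 in the amygdala (adjusted p = 0.0307) and -0.30 in the hippocampus (adjusted p = 0.000304, DESeq2).

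*Kmt2b*, the closest relative of *Kmt2a*, had 1624 to 2543 normalised counts in amygdala libraries and 1726 to 2914 in hippocampus libraries. Its log2 fold changes against WT lay between -0.03 and 0.13. The lowest amygdala value of the gene came from the same WT library that was lowest for *Kmt2a*.

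The enhancer-associated pair *Kmt2c* and *Kmt2d* varied widely between mice of a genotype. *Kmt2c* in the hippocampus had 1719, 3173, 1974 and 2205 normalised counts in WT mice, 1893, 2760, 2667 and 3754 in *Kmt2a*-HET mice, 1405, 2452, 2252 and 2055 in *Kdm5c*-KO mice and 1810, 3117, 2355 and 2906 in DM mice. The highest value belonged to a *Kmt2a*-HET mouse and the lowest to a *Kdm5c*-KO mouse, and the groups overlapped. *Kmt2d*, the paralogue of *Kmt2c*, had 3068 to 8576 in amygdala libraries and 3940 to 11478 in hippocampus libraries. Their coefficients of variation within a group reached 36.3% and 38%, against 35.8% for *Kmt2a* and 12.9% for *Setd1a*, differences that were not tested.

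*Kmt2e*, the reader of the group, had its lowest amygdala count, 1278, in WT replicate 1 and its lowest hippocampus count, 1550, in *Kdm5c*-KO replicate 1. Its log2 fold changes against WT lay between -0.14 and 0.12. *Setd1a*, a promoter methyltransferase that acts with CXXC1 and WDR82, was the steadiest member, with 1536 to 2145 normalised counts in amygdala libraries and 1588 to 2154 in hippocampus libraries. Its fold changes lay between -0.06 and 0.11, and none of them was called.

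*Setd1b*, the paralogue of *Setd1a*, was the only member called for *Kdm5c* loss. In the hippocampus the WT libraries had 1752, 1916, 1526 and 1918 normalised counts and the *Kmt2a*-HET libraries 1726, 1971, 1816 and 2352. The *Kdm5c*-KO libraries had 1203, 1641, 1633 and 1450 and the DM libraries 1322, 1520, 1547 and 1422. All 8 mice without *Kdm5c* lay below the median of the 8 mice with it, and 5 of the 8 lay below the lowest of them, although the ranges overlapped.

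An additive model of both mutations, which sets 8 mice against 8, gave *Setd1b* a log2 difference of -0.35 (SE 0.09, 95% interval -0.52 to -0.18) for *Kdm5c* loss in the hippocampus, with an adjusted p of 0.00559 (DESeq2). The level was 0.784 of that in mice with *Kdm5c*, from a mean of 1872 ± 240 to 1467 ± 151.2 (SD, n = 8). This was a comparison where 2.71% of all genes were called and 0.569% were called lower. The other 6 had log2 differences from -0.14 to -0.04. The call held in all 16 fits that left out 1 library (adjusted p from 0.000995 to 0.0226) and in edgeR (adjusted p = 0.0449). It was lost with size factors from the spike-in RNA (adjusted p = 1, DESeq2), under which the difference was -0.36 relative to the median of all genes.

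In the amygdala, *Setd1b* had 1078, 1944, 1667 and 1636 normalised counts in WT libraries and 1765, 1813, 1587 and 1798 in *Kmt2a*-HET libraries. It had 1254, 1522, 1547 and 1401 in *Kdm5c*-KO libraries and 1231, 1541, 1148 and 1355 in DM libraries. Again all 8 mice without *Kdm5c* lay below the median of the others, but the lowest value of all was in WT replicate 1. The share of all genes with such a pattern is not given here for either region. The additive model gave -0.27 for *Kdm5c* loss (95% interval -0.48 to -0.06), which was not called (adjusted p = 0.315, DESeq2). Among all genes 1.65% were called in that comparison, and 0 members were called by DESeq2 or edgeR. At an unadjusted p below 0.05, 1 member passed, as did 1626 of all genes, where 20732 were tested (DESeq2). When each library was left out in turn, the *Kdm5c* term was called in 1 of 16 fits, with an adjusted p from 0.00048 without WT replicate 1 to 0.593 without WT replicate 2 (DESeq2). DM against WT had a log2 fold change of -0.26 and an adjusted p of 0.816, and was likewise called in 1 of 16 fits, with an adjusted p from 0.0368 without WT replicate 1 to 1 without DM replicate 3 (DESeq2).

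The difference between the regions in the response of *Setd1b* to *Kdm5c* loss was itself tested. It was -0.08 on the log2 scale with a 95% interval of -0.35 to 0.19 (adjusted p = 1, DESeq2). No member was called for a regional difference in the *Kdm5c* term, where 0.0876% of all genes were called, or in the *Kmt2a* term, where 0.00937% were, and 0 members passed an unadjusted p of 0.05 in either. With the mouse as a block DESeq2 again called 0 members, where 0.0845% and 0% of all genes were called. At an unadjusted p below 0.05, 0 and 2 members passed, as did 816 and 1157 of all genes, where 23659 and 32048 were tested. edgeR was not run for these tests.

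Some markers of other cells moved with *Kdm5c* loss in the hippocampus. The choroid plexus markers *Ttr*, *Folr1* and *Kl* had a summed level of 33.36 to 2011 TPM in mice with *Kdm5c* and 39.34 to 7643 TPM in mice without it, and 2 of 3 were called higher. Of 4 markers each, 1 of astrocytes was called higher, 1 of oligodendrocytes was called lower, and 0 of neurons and 0 of microglia were called, as were 0 of 3 of endothelium. The long genes had a mean deviation of 0.01 in mice with *Kdm5c* (-0.16 to 0.20) and of -0.01 in mice without it (-0.23 to 0.16). When a trend over gene length was removed from each library, a setting chosen after seeing the data, *Setd1b* was still called (-0.33, adjusted p = 0.000225, DESeq2). The part of the markers in the *Setd1b* result was not tested.

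For *Kmt2a* heterozygosity, the additive model called 0 members in either region with DESeq2 and with edgeR, and 0 passed an unadjusted p of 0.05. The share of all genes called was 0% for the amygdala and 0.0957% for the hippocampus. The members' differences lay between -0.08 and 0.01 in amygdala and between -0.01 and 0.30 in hippocampus. The largest, that of *Kmt2c* in the hippocampus, was 0.30 with a 95% interval of -0.01 to 0.61 (adjusted p = 0.605, DESeq2). The long genes had a mean deviation of 0.05 in hippocampi with the *Kmt2a* allele and -0.04 in those without it, and the *Kmt2c* value was 0.17 when the length trend was removed. The interaction of both mutations, which asks whether DM departs from the sum of the single mutants on the log2 scale, called 0 members in either region with both tools, with 0 at an unadjusted p of 0.05, against 0.00329% and 0% of all genes. For *Setd1b* the interaction was -0.25 (95% interval -0.66 to 0.15) in the amygdala and -0.18 (95% interval -0.51 to 0.16) in the hippocampus.

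The regions were compared next. Over all 32 libraries, with genotype in the model, 4 of the 7 genes were called, all higher in the hippocampus: *Kmt2c*, *Kmt2d*, *Kmt2e* and *Setd1b*. In that comparison 44.7% of all genes were called and 21.6% were called higher in the hippocampus. The median log2 difference was 0.15 over the members and -0.010 over all genes.

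*Kmt2e* had the lowest adjusted p of the members. Its level was 16.46 TPM at the lowest, 32.55 at the median and 41.78 at the highest amygdala library, and 21.5, 35.26 and 47.42 TPM in hippocampus libraries. The ranges overlapped, yet 14 of 16 mice had more *Kmt2e* in the hippocampus than in their own amygdala. The log2 difference was 0.23 (SE 0.08), with an adjusted p of 0.0172 (DESeq2).

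*Kmt2c* and *Kmt2d* had the largest regional differences. *Kmt2c* had 936.4, 2046 and 2575 normalised counts at the lowest, median and highest amygdala library and 1405, 2303 and 3754 in the hippocampus. It was higher in the hippocampus of 13 of 16 mice, by 0.32 on the log2 scale (SE 0.13, adjusted p = 0.0309, DESeq2). *Kmt2d* had a median of 5876 normalised counts in amygdala libraries and 7014 in hippocampus libraries, within the ranges given above, and was higher in 12 of 16 mice, by 0.29 (SE 0.14, adjusted p = 0.0795, DESeq2). For both, 4 of 4 *Kmt2a*-HET, 4 of 4 DM and 2 of 4 WT mice were higher in the hippocampus, as were 3 of 4 *Kdm5c*-KO mice for *Kmt2c* and 2 of 4 for *Kmt2d*. The regional difference of the *Kmt2a* term was 0.35 for *Kmt2c* (95% interval -0.13 to 0.84) and 0.38 for *Kmt2d* (95% interval -0.16 to 0.92), with an adjusted p of 1 for each (DESeq2). With the mouse as a block, a fit added after seeing the data, these were 0.31 (95% interval 0.02 to 0.59) and 0.32 (95% interval 0.01 to 0.64), and the adjusted p was again 1 for each (DESeq2), where 0% of all genes were called.

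*Setd1b* stood close to the threshold, with a log2 difference of 0.13 (SE 0.07, adjusted p = 0.0947, DESeq2) and 11 of 16 mice higher in the hippocampus. *Kmt2a* (0.15, adjusted p = 0.371), *Kmt2b* (0.08, adjusted p = 0.387) and *Setd1a* (0.01, adjusted p = 0.94) were not called, with 10, 11 and 8 of 16 mice higher. When each mouse was left out in turn, *Kmt2c* and *Kmt2e* were called in 16 of 16 fits, *Kmt2d* in 10 and *Setd1b* in 5. For *Setd1a* the 95% interval ran from -0.09 to 0.10. Because the regions came from the same mice, the mouse was also fitted as a block, and *Kmt2a* then joined the called members (0.15, adjusted p = 0.0591, DESeq2, where 48.9% of all genes were called).

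The long genes as a class moved with this comparison, since the median mouse had them 0.12 higher in the hippocampus on the log2 scale. When the length trend was removed from each library, *Kmt2c* (0.14, adjusted p = 0.0613) and *Kmt2e* (0.14, adjusted p = 0.0124) were still called, while *Kmt2d* (0.11, adjusted p = 0.268) and *Setd1b* (0.03, adjusted p = 0.658) were not (DESeq2). Of the cell markers, 3 of 3 of choroid plexus and 3 of 4 of neurons were called higher in the hippocampus. Of 4 astrocyte markers 1 was called higher and 1 lower, and 0 were called of oligodendrocytes, microglia and endothelium. Among all genes 44.7% were called and 21.6% were called higher. The part of the markers was not tested.

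**Figure D4:**
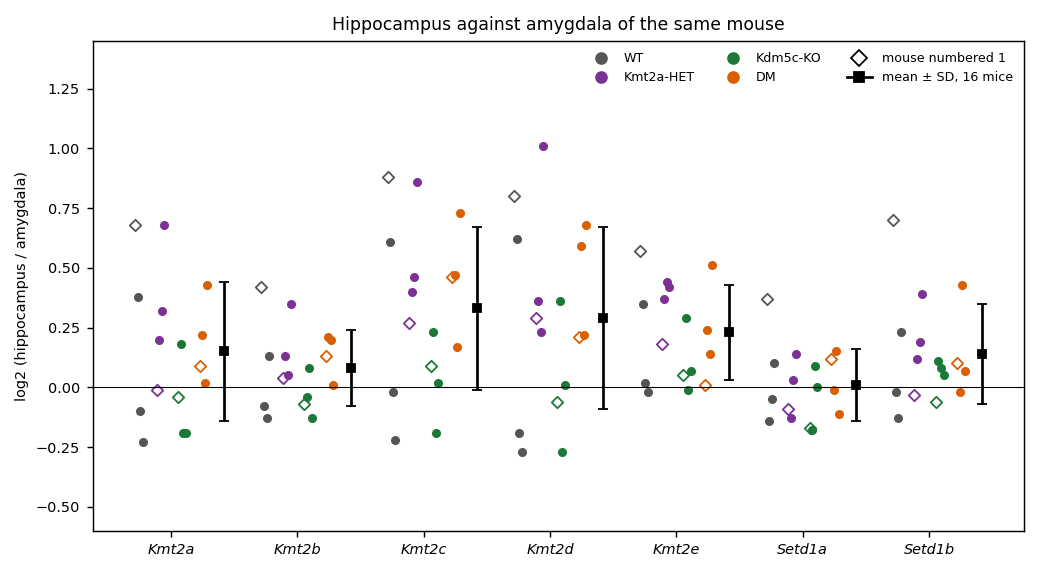
Log2 ratio of the hippocampus to the amygdala of the same mouse (vertical axis) for the 7 genes, 1 point per mouse, coloured by genotype and open for mice numbered 1, with the mean and SD over 16 mice in black. Most points lie above 0 for *Kmt2e* (14 of 16) and *Kmt2c* (13 of 16), and 8 of 16 do for *Setd1a*.

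Transcript estimates gave a main form for each member. Kmt2d-201 held 96.8% ± 1.55 of its gene's transcript counts in the amygdala (SD over 16 libraries), Kmt2a-201 86.9% ± 7.88, Kmt2b-201 86.1% ± 6.63 and Kmt2e-201 86% ± 4.16. *Setd1a* was divided between Setd1a-202 with 78.7% ± 7.03 and Setd1a-201 with 21.1% ± 6.97, and *Setd1b* between Setd1b-204 with 59.9% ± 12.1, Setd1b-201 with 28.2% ± 10.1 and Setd1b-206 with 10.4% ± 8.32. These are shares of estimated counts, not of molecules, and they vary between libraries by as much as their SDs show.

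The main form held the smallest share for *Kmt2c* in the amygdala, and for *Setd1b* in the hippocampus (Setd1b-204, 53.5% ± 7.97). Kmt2c-201, the full-length form of 59 exons, held 50.3% ± 9.42 of the counts in the amygdala and 54.7% ± 10.1 in the hippocampus. Kmt2c-208 and Kmt2c-202, which have 18 and 20 exons and cover the 3′ part of the gene, held 25.9% ± 9.32 and 20.8% ± 2.96 in the amygdala. The share of Kmt2c-201 was as low as 26.8% in an amygdala library, and that of Kmt2c-208 as high as 52.6%. In WT amygdala replicate 1, Kmt2c-201 had 251 normalised counts against 1043 to 1517 in the other WT libraries, while Kmt2c-208 had 493 against 381 to 522.

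**Figure D5:**
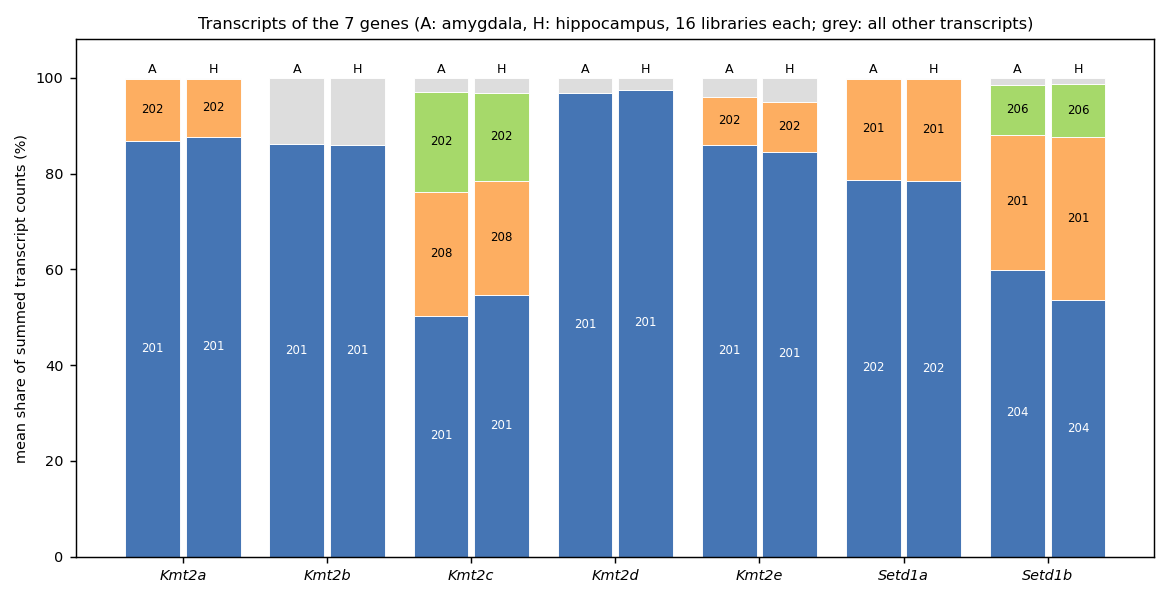
Share of each gene's transcript counts (percent, vertical axis) given to each named transcript, as the mean over 16 libraries per region (A, amygdala, and H, hippocampus), with all other transcripts in grey. *Kmt2d* is close to a single form, and *Kmt2c* and *Setd1b* are divided among 3.

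Kmt2a-202, the second full-length form, held 12.8% ± 7.79 of the *Kmt2a* counts in the amygdala and 12.2% ± 5.59 in the hippocampus, from 0% to 28% among amygdala libraries. Its estimate was 0 in DM amygdala replicate 1 and 877, 405 and 838 normalised counts in the other DM amygdala libraries. Neither Kmt2a-201 nor Kmt2a-202 was called in any comparison.

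Kmt2a-204, a short form of 4 exons annotated for nonsense-mediated decay, was the only member transcript called between genotypes. In the amygdala it was at 0 in all 4 WT libraries, at 0, 23, 0 and 52 normalised counts in *Kmt2a*-HET, at 0, 32, 19 and 34 in *Kdm5c*-KO and at 17, 11, 26 and 20 in DM. The DM libraries alone did not overlap WT, and the share of all transcripts without overlap is not given here. Against a floor of 3 counts per library, the means were at least 6.42-fold, 7.32-fold and 6.41-fold higher than WT, and DESeq2 gave adjusted p of 0.099, 0.0469 and 0.07. Among all transcripts 0.267%, 0.501% and 0.429% were called in these comparisons. edgeR called 0 member transcripts in them. In the hippocampus Kmt2a-204 was 0 in 3 of 4 WT and 3 of 4 DM libraries. There 0 member transcripts were called by either tool in *Kmt2a*-HET, *Kdm5c*-KO or DM against WT. Of all transcripts 0.159%, 0.402% and 0.481% were called in these comparisons. At an unadjusted p below 0.05, 0, 0 and 2 member transcripts passed, and the share of all transcripts at that threshold is not given here. The estimate was at most 52 normalised counts and was 0 in 17 of 32 libraries. When each library was left out in turn, the 3 calls held in 3, 11 and 4 of 16 fits.

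Between regions, 1 of 37 member transcripts tested was called, where 24.5% of all transcripts were. This was Kmt2e-201, higher in the hippocampus by 0.15 on the log2 scale (SE 0.06, adjusted p = 0.0536, DESeq2). With the mouse as a block 5 were called, Kmt2c-201, Kmt2d-201, Kmt2d-204, Kmt2e-201 and Setd1b-201, where 29.8% of all transcripts were. For *Setd1b* in the hippocampus, the main form Setd1b-204 had means of 976.2 ± 81.19 normalised counts in WT and 958.9 ± 236.4 in *Kmt2a*-HET (SD, n = 4). The means were 807.3 ± 96.2 in *Kdm5c*-KO and 792 ± 106.4 in DM. For Setd1b-201 the means, in the same order of genotypes, were 639.3 ± 45.44, 608.1 ± 84.58, 552.9 ± 84.4 and 459.5 ± 88.38. Both were lowest in DM. For Setd1b-206 the means were 132.4 ± 99.29, 366.8 ± 262.6, 103.8 ± 103.6 and 184.3 ± 171.3, lowest in *Kdm5c*-KO. None of these forms was called against WT.

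The partners of these enzymes and the H3K4 demethylases were read from 5 lists with 21 genes. In the 12 comparisons of genotype, *Kdm5c* itself was the only gene of the lists that DESeq2 called. Between regions 8 of 21 were called higher in the hippocampus and 1 lower, with a median log2 difference of 0.12, beside the 44.7% of all genes called and 21.6% called higher there. Of the core subunits, *Rbbp5* was higher by 0.23 (adjusted p = 5.97e-07, DESeq2) and *Dpy30* lower, at -0.24 (adjusted p = 0.0204, DESeq2), while *Wdr5* (0.00) and *Ash2l* (-0.02) were not called. Of the partners of KMT2C and KMT2D, the coactivator gene *Ncoa6* had 972.2, 1259 and 1435 normalised counts at the lowest, median and highest amygdala library and 1323, 1653 and 2008 in the hippocampus, a log2 difference of 0.44 (adjusted p = 1.77e-12, DESeq2). *Paxip1* was higher by 0.24 (adjusted p = 6.14e-07), and *Kdm6a* (0.08) and *Pagr1a* (0.45, SE 0.83) were not called.

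Of the SETD1 partners, *Wdr82* (0.13, adjusted p = 0.00745) and *Hcfc1* (0.16, adjusted p = 0.0453) were called higher, and *Cxxc1*, *Bod1* and *Bod1l* were not. Of the H3K4 demethylases, *Kdm1a* (0.12, adjusted p = 0.000319), *Kdm5b* (0.23, adjusted p = 0.00122) and *Kdm5c* (0.12, adjusted p = 0.0616) were called higher, and *Kdm1b*, *Kdm5a* and *Kdm5d* were not (DESeq2). The partners of KMT2A and KMT2B, *Men1* and *Psip1*, had log2 differences of 0.00 and -0.01 and were not called.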

How the data were processed

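mRNA-seq libraries from the amygdala and hippocampus of 16 mice (4 per genotype) were analysed. The authors deposited expected counts per gene and per transcript for each region. Libraries were oligo-dT primed with a directional kit, and spike-in RNA was added. The study's methods describe mapping to mm10 (Gencode) with STAR 2.5.3a, removal of duplicates and of reads without a unique place, counting with featureCounts (Subread 1.5.0) and testing with DESeq2 1.14.1. featureCounts gives whole counts by default, and the tool and Gencode release behind the estimated counts are not given in the sources used here. Among the deposited expected counts per gene, 7.07% were not whole, so all were rounded before fitting. Depth was 19215503 to 27798980 gene counts per library, and counting error and normalisation limit the precision of each value. Gene symbols, transcripts and coordinates came from GENCODE M21, which matched 53620 of 53715 genes and 134952 of 135181 transcripts.

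Fits used DESeq2 1.42.0 in R 4.3.3 over all features, with adjusted p (Benjamini-Hochberg) below 0.1 as a call. Each region was fitted by genotype and by an additive model of both mutations, and regions were compared over 32 libraries with genotype in the model. edgeR 4.0.16 was the alternative tool. Printed counts are normalised by DESeq2 size factors over all 32 libraries, and TPM was computed from expected counts and transcript lengths. The fits were tested on simulated data. Further alternatives were TMM and spike-in size factors, a filter of 10 counts in 4 libraries, a replicate block, and leaving out each library.

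The members and lists were chosen with earlier results of these data known. The text names all 7 members, and transcripts with at least 10% of their gene's counts in a region or called in a comparison. It also names partner and demethylase genes that were called, *Kdm5c*, and the 5 genes most like the members. Partner and demethylase genes that were not called are named after their values were seen, to account for each list. Replicates are separate mice. No pair of replicates agreed within sampling noise, with a chi-square per gene of 3.891 or more over 48 pairs. The labels tie amygdala and hippocampus libraries to the same mouse, and deviations correlated above 0.1 between regions in 14 of 16 mice (median r = 0.202), so the mouse was also used as a block. A sequence difference between transcripts is not reported here.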

Additional observations from a re-analysis of the deposited data

Results flagged for a closer look

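In 3 of the 56 groups of 4 libraries, the lowest library lay far from the other 3 by Dixon's criterion, which chance alone meets in about 1 in 20 groups. These were *Kmt2b* in *Kmt2a*-HET amygdala replicate 1 with 1946 normalised counts, *Kmt2e* in WT amygdala replicate 1 with 1278 and *Kmt2e* in *Kdm5c*-KO amygdala replicate 1 with 1496. All 3 are amygdala libraries numbered 1.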

How the results depend on the processing

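Of 2282 recomputed fold changes of the members, 2247 were scored as unchanged in direction and in their side of the threshold. Changes of sign within 1 SE of a value that was not called were counted as no change. This rule covered *Kmt2a* in *Kmt2a*-HET amygdala, which ran from -0.20 to 0.19 when each library was left out. *Setd1b* in *Kmt2a*-HET against WT amygdala turned from 0.14 to -0.01 with all libraries numbered 1 left out, and that setting and the length trend were chosen after seeing the data. With all libraries numbered 1 left out 1 member was called for *Kdm5c* loss in the amygdala (*Setd1b*, with 2.64% of all genes), and with the length trend removed 1 was called in DM hippocampus (*Setd1b*, with 1.21%). Spike-in size factors shifted the median of all genes by -0.634 to 0.650 on the log2 scale, left 0 members called for *Kdm5c* loss in the hippocampus (22 genes called in all, 245 with edgeR and 538 in the reported fit) and called 7 between regions, with 60.2% of all genes. Between regions 2 members were called at an adjusted p below 0.05 and 2 with the length trend removed, and 0 with only WT libraries, which leaves 8. When each library or mouse was left out in turn, members called ran from 0 to 1 for DM against WT amygdala and for *Kdm5c* loss in the amygdala (1 without WT replicate 1). Between regions they ran from 2 to 4, with 2 without *Kdm5c*-KO replicate 2, *Kmt2a*-HET replicate 2, *Kmt2a*-HET replicate 4 or DM replicate 4. Member transcripts called ran from 0 to 2 for *Kmt2a*-HET, from 0 to 1 for *Kdm5c*-KO and from 0 to 1 for DM in the amygdala, from 0 to 2, 0 to 1 and 0 to 1 in the hippocampus, and from 0 to 3 between regions. For *Kmt2a*-HET amygdala, member transcripts called were 0 at an adjusted p below 0.05, 0 with the low-count filter and 0 with edgeR. They were 0 with edgeR for *Kdm5c*-KO amygdala, 0 with edgeR and 0 at an adjusted p below 0.05 for DM amygdala, and 0 at that threshold between regions. The replicate numbers were not taken to pair genotypes, which required a correlation above 0.1 in every same-number pair and was met in 22 of 48, although 15 of 32 libraries were most like their own number and all 8 libraries numbered 1 had low long genes. With the replicate block, 1 member (*Kmt2c*) was called for *Kmt2a* heterozygosity in the hippocampus, with 0.872% of all genes, and member transcripts called were 3, 2 and 2 for *Kmt2a*-HET, *Kdm5c*-KO and DM amygdala and 3, 1 and 4 for the same genotypes in the hippocampus, where 3528 to 4215 of all transcripts were called. It changed no other count of members among the genotype comparisons. With the mouse as a replicate block, 5 members and 5 member transcripts were called between regions. The cause of these changes was not tested.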
